A study of Homo sapiens with 6 samples.

Results

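The comparison described here set the 2 arrays of the Burkitt lymphoma line Namalwa against the 2 arrays of the Burkitt lymphoma line Ramos, 4 of the 6 arrays of the study. The arrays were taken by their labels, which name the line and the construct. The study concerned EZH2, MYC and miR-26a. Each line had been transfected with an empty construct or with one for miR-26a, and 1 array was made of each. Doxycycline, given as Dox at 0.5 µg/ml for 72 h, is the listed treatment of every array, those with the empty construct included, and total RNA was hybridised to Affymetrix U133 Plus 2.0 arrays. The third line, Raji, entered no difference between Namalwa and Ramos. Its values stand beside some of them for orientation, and 1 paragraph near the end sets stretches of chromosomes in each line against it. Nothing in the labels says that the 2 arrays of a line came from separate cultures apart from their constructs, so the p-values measure only the spread between these arrays. Each line is 1 established culture, so a property of Burkitt lymphoma cells and a property of that culture cannot be told apart.

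Burkitt lymphoma is a tumour of germinal centre B cells in which a chromosome translocation places MYC under the control of an immunoglobulin locus. Namalwa and Raji carry the Epstein-Barr virus, and Ramos does not. Viral latency proteins can act on NF-kB targets and on surface molecules of B cells, and host genes of that kind were among the gene groups examined. All gene groups and their members were chosen with earlier results of these data known. Their counts below are therefore a description and no independent test. Whether the virus bears on any difference below cannot be told apart from all else that separates the lines.

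Values are RMA intensities on the log2 scale. A difference is Namalwa minus Ramos on that scale, so 1 is 2-fold, and a pair of values gives the empty array first and the miR26a array second. A gene counted as called at an adjusted p under 0.05 in limma's moderated test (Benjamini-Hochberg over all genes tested) with the construct as a block. Intensities of different genes depend on their probes and were not set against each other.

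The identity of the cells was checked on markers. All 6 measured B-cell markers and all 6 markers of germinal centre or Burkitt cells lay above the level minimum of 4.42 on the 4 arrays. Of the markers of other cells, 1 of 6 for T and NK cells, 1 of 2 for red cells and 1 of 4 for fibroblasts did so, while all 6 measured markers of monocytes and all 3 of epithelium lay below it on each of the 4 arrays. The summed log2 level of the monocyte markers was 6.09 to 6.10 in Namalwa and 6.03 to 6.15 in Ramos, that of the T and NK markers 6.39 to 6.41 and 6.36 to 6.41. In the RNA controls, the Namalwa empty array had an ACTB 3′ signal 3.58 above the 5′ signal, against 1.80 to 1.98 on the other 5 arrays. The Ramos empty array had the highest 18S rRNA signal, 8.99, and the Namalwa empty array the lowest, 6.68. Counts below are therefore also given without single arrays. They hold all genes that such a fit calls, some of which were not called with all arrays. The part of RNA quality in any difference was not tested.

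The lines differed at many genes, mostly by little. Of 12012 genes tested, 1761 were called (14.7%), 972 of them higher in Namalwa (8.09%) and 789 lower (6.57%). The median size of the difference was 0.67 among called genes and 0.18 among all genes tested, and the smallest called difference was 0.42. A called difference of at least 2-fold was found for 340 genes (2.83%), 203 higher (1.69%) and 137 lower (1.14%) in Namalwa. For 80 of these 340 the line with the lower level had a mean below the level minimum, 35 of them higher and 45 lower in Namalwa. Such genes were near background in 1 line, so their fold is given as a lower bound, with the level minimum in place of the mean of the lower line. Their fitted log2 differences, which served to order and test them, rest on a value near background and are not measured sizes. Each bound is for the 1 probe set that stood for the gene, and its other probe sets can give a smaller fold. Leaving out the Namalwa empty, Namalwa miR26a, Ramos empty or Ramos miR26a array left 936, 983, 870 and 957 genes called, and 377, 383, 364 and 383 with at least 2-fold.

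The difference was also taken within each construct. All 1761 called genes had the same sign in the empty pair and in the miR26a pair. The fit calls genes on which the pairs agree, so this follows largely from the calling and is no separate support. Of the 340, 234 were at least 2-fold apart in each pair taken alone. In 13 of the 340 the pairs differed by more than 1. Across all 12012 genes the difference in the empty pair and that in the miR26a pair correlated with r = 0.779, a description over genes, which are not independent replicates. EZH2, the methyltransferase of the Polycomb complex PRC2 that the study is about, was at 9.63 and 8.87 in Namalwa and at 9.77 and 9.16 in Ramos. Its line difference of −0.22 (95% interval −0.54 to 0.10) did not pass the test (limma adjusted p = 0.351).

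**Figure D1:**
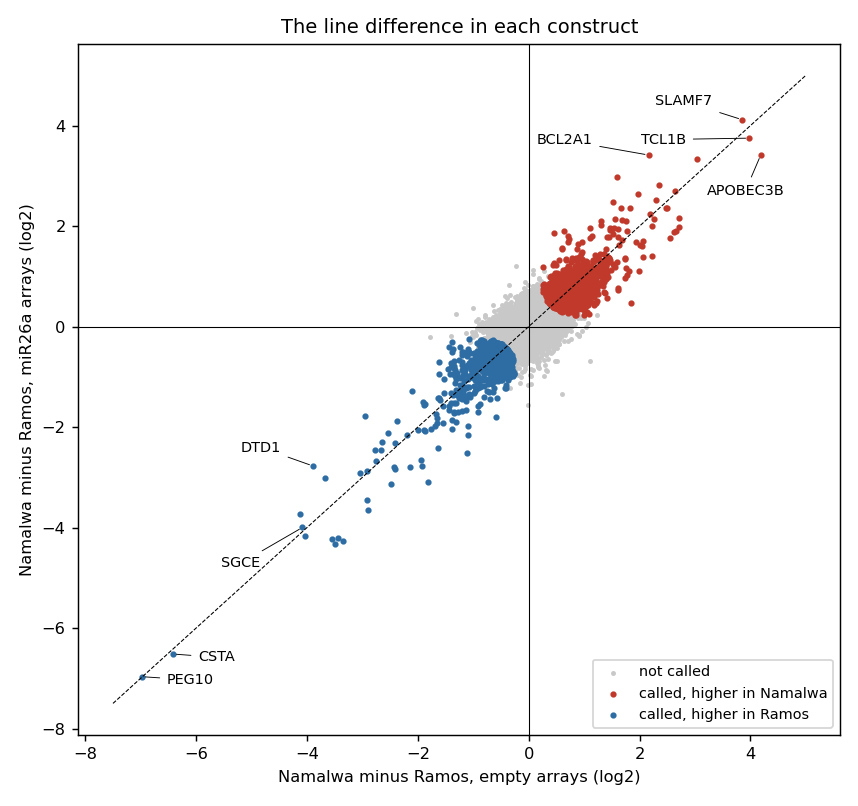
Each point is 1 of the 12012 genes tested, with Namalwa minus Ramos in the empty arrays on the x axis and in the miR26a arrays on the y axis, both in log2. Called genes are red (higher in Namalwa) or blue (higher in Ramos), and the dashed line marks equal differences. All 1761 called genes lie at the lower left or the upper right, which the calling itself favours.

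Of the 177 genes that the text could name by rule, 174 were called, and 91 of these kept the call in every fit that was run. The remaining 83 lost it in at least 1 fit, most often where an array was left out. Where such a gene is named, the words "call not kept" stand beside it.

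The widest fitted differences were of genes high in Ramos and near background in Namalwa. PEG10, an imprinted gene of retrotransposon origin on chromosome 7, was at 2.46 and 2.29 in Namalwa and at 9.44 and 9.26 in Ramos. It was at least 30.4-fold higher in Ramos (limma adjusted p = 2.97e-09). The fitted difference was −6.98, and −4.29 for a second probe set, which was the brighter one when levels were taken over the 4 arrays only. SGCE, the imprinted sarcoglycan gene that is its neighbour among the genes tested, was at 2.96 on both Namalwa arrays and at 7.05 and 6.96 in Ramos, at least 5.99-fold higher there. Both genes thus lay below the level minimum in Namalwa and well above it in Ramos. In Raji their means were 6.92 and 6.34. CSTA, which codes for the cysteine protease inhibitor cystatin A, was at 3.31 and 3.25 in Namalwa against 9.73 and 9.77 in Ramos, at least 40.1-fold higher there (limma adjusted p = 2.97e-09). Raji was near background for it as well, at a mean of 4.14.

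Other genes with this pattern belonged to unrelated groups. MCTP1, a membrane protein with C2 domains, was at 4.16 and 3.96 against 8.19 and 8.12, at least 13.3-fold higher in Ramos. Its difference ranged from −4.28 to −3.03 over the fits that were run. NMU, the neuropeptide neuromedin U, was at 3.93 and 3.07 against 7.43 and 7.40. LAMP5, a relative of the lysosomal membrane proteins found in plasmacytoid dendritic cells and neurons, was at 4.30 and 3.95 against 7.74 and 8.16. In each of these 3 genes both Namalwa arrays were below the level minimum and both Ramos arrays were far above it. MIR99AHG, the long noncoding host transcript of a miRNA cluster on chromosome 21, was at 2.59 and 2.52 against 6.14 and 6.73, at least 4.04-fold higher in Ramos, and its fitted difference went from −3.88 to −1.94 when all its probe sets were averaged. The others of this pattern among the 15 widest were DTD1, RGMB, TEX30, NAXD, ARHGAP5, NIBAN1 and CPNE3, at least 9.61-, 6.93-, 6.51-, 6.37-, 6.26-, 3.53- and 1.93-fold higher in Ramos. DTD1, which codes for a D-aminoacyl-tRNA deacylase, was at 3.74 and 4.97 in Namalwa, and its fitted difference went from −3.33 to −1.64 when all probe sets were averaged.

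In other genes both lines had means above the level minimum, though in some by little. P4HA2, a prolyl hydroxylase that modifies collagen, was at 5.03 and 4.44 in Namalwa and 8.38 and 8.70 in Ramos. Its difference of −3.81 (SE 0.22) was the widest of these and became −2.28 when all its probe sets were averaged. HDAC9, a class IIa histone deacetylase, was at 6.10 and 5.63 in Namalwa and 8.51 and 8.46 in Ramos, which is 6.2-fold lower. IL7R, the interleukin-7 receptor chain of early lymphoid cells, was at 7.12 and 6.93 against 9.07 and 9.58, which is 4.9-fold lower. IKZF2, the Ikaros family factor Helios, was 3.9-fold lower at 6.42 and 6.11 against 8.29 and 8.19, and its difference of −1.97 became −1.13 with all probe sets averaged. In HDAC9, IL7R and IKZF2 no Namalwa array reached any Ramos array. The arrays of the 2 lines did not overlap in 1739 of the 1761 called genes and in 6470 of all 12012 tested. PTGER4, a prostaglandin E2 receptor, differed by −2.36, KISS1R, the kisspeptin receptor, by −2.17, and TMTC2 by −2.47. With all probe sets averaged PTGER4 differed by −1.24 and TMTC2 by −1.57. TSPYL4 (−2.13), NDUFAF2, an assembly factor of respiratory complex I (−1.98), and the long noncoding RNA AFAP1-AS1 (−1.90) completed the group together with PCDHGA4 and CASP1, which are described below. In Namalwa TMTC2 (4.48 and 4.38), PTGER4 (4.48 and 4.78) and AFAP1-AS1 (4.53 and 4.56) were close to the minimum of 4.42. P4HA2 was so on its miR26a array (4.44). The differences of these 4 genes are therefore not firm sizes.

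In the other direction SLAMF7, a SLAM family receptor that marks plasma cells and NK cells, was near background in Ramos. It was at 7.07 and 7.77 in Namalwa and below the level minimum in Ramos, at 3.22 and 3.65, so that it was at least 7.99-fold higher in Namalwa (limma adjusted p = 6.26e-07). Its difference ranged from 2.66 to 4.18 over the fits that were run. APOBEC3B, a cytidine deaminase that acts on single-stranded DNA, was at 7.72 and 6.86 against 3.54 and 3.45, at least 7.30-fold higher. ELK3, an ETS family factor that responds to MAP kinase signals, was at 6.14 and 6.13 against 3.10 and 2.80, at least 3.27-fold higher. These 3 genes were above the level minimum on both Namalwa arrays and below it on both Ramos arrays. CMAHP, the pseudogene of the enzyme that makes the sialic acid lost in humans, was at least 4.35-fold higher, and HCP5, a noncoding transcript of the MHC region, at least 5.18-fold. TCL1B, described below, had the widest difference of genes with both lines above the minimum. PHACTR1 (2.42), CMTM4 (2.58) and UBASH3B (at least 3.18-fold) were also among the 15 widest, and averaging all probe sets gave 1.58, 1.43 and 1.34 as their differences. So was the immediate early factor EGR1, which was at 8.66 and 9.05 against 6.69 and 6.40.

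**Figure D2:**
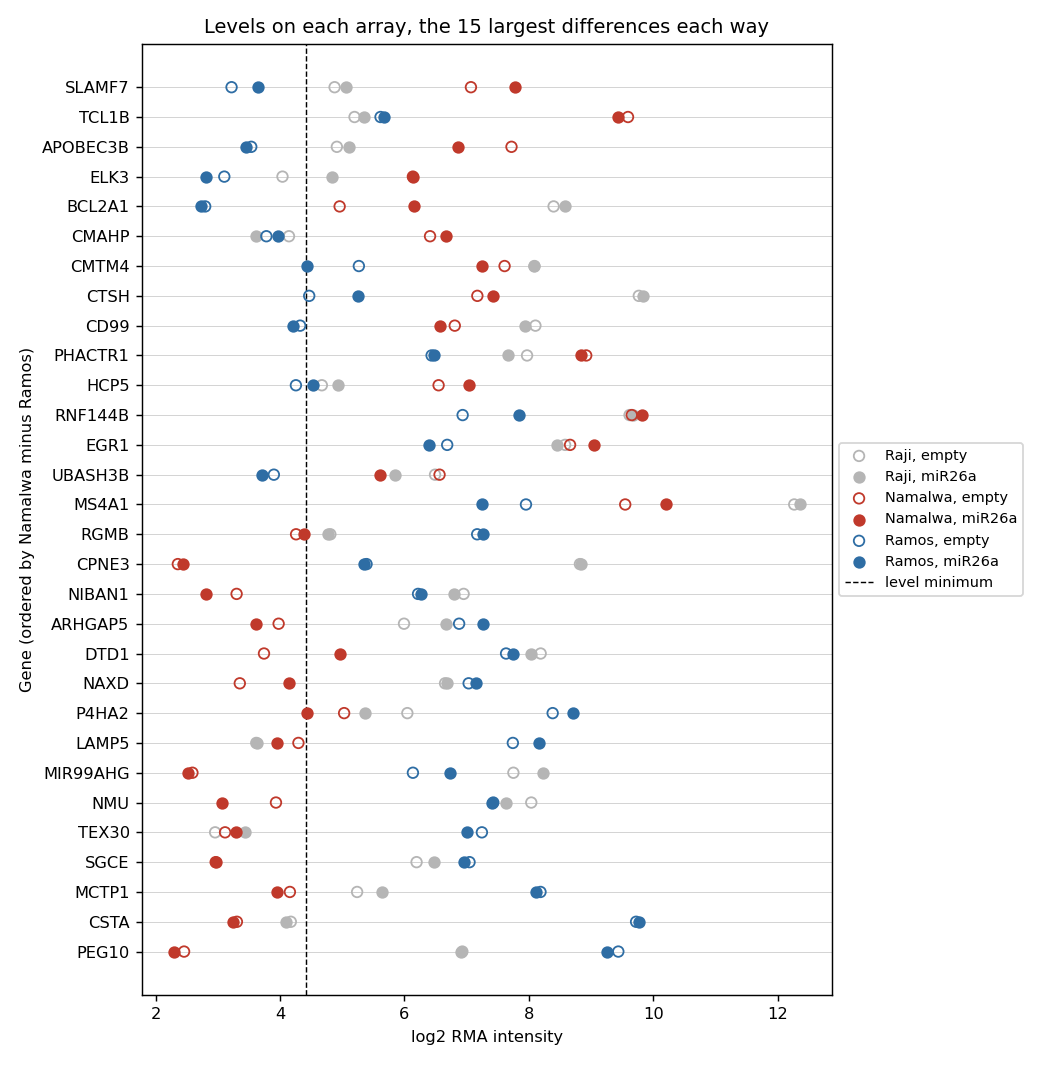
Log2 RMA intensity (x axis) of the 15 genes with the widest called difference in each direction (y axis), 1 point per array, open for empty and filled for miR26a, with Raji in grey. The dashed line is the level minimum of 4.42. In the lower 15 genes the Namalwa points lie at or to the left of 5.03, and in the upper 15 the Ramos points lie at or to the left of 7.96.

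The surface antigens of B cells had more Namalwa-high members than any other list examined. The lists were chosen with earlier results of these data known, so the shares set beside all genes describe them only. Of 37 tested members of the list, 15 (40.5%) were called, each of them higher in Namalwa, beside 14.7% called and 8.09% called higher over all genes tested, with a list median of 0.38 against 0.0020 for all genes tested. Leaving out the Namalwa empty, Namalwa miR26a, Ramos empty or Ramos miR26a array left 14, 11, 11 and 12 members called, and without the Namalwa miR26a array 2 of the 11 were lower in Namalwa. MS4A1, which codes for CD20, was at 9.55 and 10.21 in Namalwa, 7.96 and 7.24 in Ramos and a mean of 12.32 in Raji, so Namalwa was 4.9-fold above Ramos (limma adjusted p = 0.0005). CD27, the memory B-cell receptor for CD70, was 4.7-fold higher at 8.52 and 8.97 against 6.33 and 6.73. CD99 was at 6.81 and 6.56 against 4.32 and 4.20, with Ramos below the level minimum, and so at least 4.81-fold higher. LY9, a SLAM receptor, was 1.31 higher. CR2, the complement receptor CD21 through which the Epstein-Barr virus enters B cells, was at 5.25 and 5.02 in Namalwa and below the level minimum in Ramos at 3.90 and 4.01, while the Raji mean was 7.92. In all 5 genes both Namalwa arrays exceeded both Ramos arrays. The arrays of the 2 lines were likewise apart in 6470 of all 12012 genes tested.

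Among the transcription factors of B cells, 32 were tested and 8 called, 4 in each direction, where 14.7% of all genes tested were called. ID3, an inhibitor of the E-protein TCF3, was at 9.80 and 9.78 in Namalwa and 10.75 and 10.72 in Ramos, a difference of −0.94 (SE 0.12). BACH2, a repressor that holds back plasma cell differentiation, was at 7.85 and 8.17 against 8.90 and 8.95, and at a mean of 4.35 in Raji. SOX11, a factor of the SoxC group, was at 7.41 and 6.92 against 5.42 and 5.82, and near background in Raji at 2.70. LMO2, a germinal centre adaptor, was 1.11 higher in Namalwa, though the Raji mean of 9.04 was above both. SPIB was 1.07 higher, BCL6 0.51 higher, MEF2C 0.54 lower and FOXP1 0.46 lower in Namalwa, and in all 4 the call was not kept. FOXP1 also has another probe set that differed the opposite way. With any 1 of the Namalwa or Ramos arrays left out, some of the 8 lost the call. In some of these fits other members were called instead.

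In the signalling chain of the B-cell receptor 9 of 37 tested genes were called higher and 4 lower in Namalwa. Together these are 35.1%, beside 14.7% of all genes tested. CSK, the kinase that inhibits SRC family kinases, was at 8.55 and 8.45 against 7.50 and 7.32, and PTPN6, the phosphatase SHP-1, was 1.08 higher. BANK1, a scaffold of B cells, was at 5.88 and 6.13 in Namalwa and 4.34 and 4.17 in Ramos, and LAT2, an adaptor, was 1.60 higher. PIK3R1, the regulatory subunit of PI 3-kinase, was lower at 8.15 and 8.35 against 9.07 and 9.21. FYN, ITPR1 and PAG1, the last an adaptor that recruits CSK, were 0.54, 0.60 and 0.51 lower, call not kept. Without single arrays, in the order above, 10, 7, 8 and 9 members were called, against 13 with all. Of the 14 tested immunoglobulin and surrogate chain genes, VPREB3 (−0.81) and RAG2 (−0.79) were lower and IGHD (0.82) and IGHG1 (0.55) higher in Namalwa, call not kept for all 4, and 1, 5, 3 and 4 of the list were called without single arrays.

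The NF-kB targets and host genes of Epstein-Barr virus latency showed calls in 1 direction with all arrays. Of 29 tested, 9 were called, each higher in Namalwa, beside 14.7% called and 8.09% called higher over all genes tested. The list median was 0.27. Leaving out the Namalwa empty, Namalwa miR26a, Ramos empty or Ramos miR26a array left 7, 6, 8 and 7 called, and 1 of the 8 was then lower in Namalwa. BCL2A1, an inhibitor of apoptosis of the BCL2 family, was at 4.96 and 6.15 in Namalwa, at 2.80 and 2.74 in Ramos and at a mean of 8.49 in Raji. It was at least 2.19-fold higher in Namalwa than in Ramos, and its level in Namalwa was higher on the miR26a array. TNFAIP3, the deubiquitinase A20 that limits NF-kB, was at 6.86 and 7.11 against 5.71 and 5.83. CD83, an activation antigen, was at 7.61 and 8.01 against 6.73 and 6.92. These were also below the Raji means of 7.24 for TNFAIP3 and 9.79 for CD83.

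Among receptors and adhesion molecules more members were higher in Namalwa than lower. Over all genes tested, 8.09% were called higher and 6.57% lower, together 14.7%. Of 25 adhesion molecules and integrins 9 were called higher and 4 lower, and 8, 6, 7 and 7 were called without single arrays in the same order, against 13 with all. ITGB2, the common chain of the leukocyte integrins, was at 6.09 and 6.29 in Namalwa and 4.09 and 4.67 in Ramos, and ITGA6, a laminin-binding chain, was 1.21 higher. PECAM1 was at 6.85 and 6.47 against 5.59 and 5.34. ITGAM, an integrin chain of myeloid cells, was at 4.62 and 5.48 against 3.97 and 3.58, call not kept, with its other probe set the opposite way, and MS4A7, another myeloid gene, was 0.49 higher, call not kept. The 6 monocyte markers reached at most 4.27 on these arrays, below the level minimum. ITGAV, CADM1, ITGA4 and ALCAM were 0.67, 0.52, 0.49 and 0.45 lower, call not kept. In the SLAM family SLAMF7, LY9 and CD84 (0.71, call not kept) were higher and SLAMF6 (−0.57, call not kept) lower, out of 7 tested, and without the Ramos empty array 2 of these 4 were called. Of 12 Fc receptor genes FCRL5 was 1.25 higher, and FCER1G, the signalling chain shared by several Fc receptors, was at 6.53 and 7.77 in Namalwa and at a mean of 5.15 in Ramos. IL2RG, the common cytokine receptor chain, was 4.3-fold higher at 6.91 and 7.12 against 5.09 and 4.76, whereas its partner IL7R was lower, as given above. Of the genes of plasma cells and BAFF receptors 5 of 24 were called higher and 1 lower, and besides SLAMF7 and CD27 the higher ones included CD38 (0.92) and CREB3L2 (0.65), and the lower one was TNFRSF13B (−0.69). CD38, CREB3L2 and TNFRSF13B did not keep the call.

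Genes of innate sensing and antigen presentation differed by small amounts that depended on single arrays. Of all genes tested, 8.09% were called higher and 6.57% lower in Namalwa. In MHC class I presentation 6 of 18 were called higher and 1 lower, and without single arrays, in the same order, 5, 1, 3 and 1 members were called. HLA-B, at 10.90 and 11.38 against 10.23 and 10.33, kept its call, and HLA-C (0.69), HLA-E (0.80), TAP1 (0.57) and ERAP1 (−0.47) did not. The class I genes are near-identical in sequence, so their probe sets may share signal. Of 13 class II genes, HLA-DQA1 was called (1.07, call not kept, its other probe set the opposite way) and 12 of 13 differences were positive, and 4 members were called without the Namalwa empty array. Without the Namalwa miR26a array limma called none of them, with 1 at an unadjusted p under 0.05. Of 18 Toll-like receptors and partners 6 were called higher and 1 lower, and 3, 1, 4 and 1 without single arrays. LY96, the co-receptor of TLR4, kept its call at a mean of 7.69 in Namalwa against 6.74 and 6.88 in Ramos. TLR9 (0.74), CD180 (0.60), TLR10 (0.57) and TLR4 (−0.69) did not keep theirs, and the other probe set of TLR4 differed the opposite way.

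Interferon-stimulated genes went both ways. Of 35 tested 7 were called lower and 3 higher in Namalwa, together 28.6%, beside 14.7% of all genes tested. The list median was −0.03. IFIT5, an antiviral RNA-binding protein, was at 4.41 and 4.57 in Namalwa and 5.77 and 5.93 in Ramos. IFITM1, a membrane protein that blocks viral entry, was below the level minimum in Namalwa at 4.06 and 4.30 and at 5.59 and 5.34 in Ramos. TRIM22 was at 6.81 and 7.20 against 7.84 and 8.05. EPSTI1 (−0.94) was lower and IRF9 (0.86), USP18 (0.67) and PARP9 (0.53) were higher, call not kept, and the other probe set of PARP9 differed the opposite way. Without the Ramos empty array 5 members were higher and 5 lower, and without the Namalwa miR26a array the 6 members called were all lower. Without the Namalwa empty array 4 were lower and 3 higher, and without the Ramos miR26a array the 7 called were lower.

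The genes of 2 inflammatory caspases, neighbours on chromosome 11, were lower in Namalwa. CASP1, the protease that matures interleukin-1 beta, was at 4.84 and 5.32 in Namalwa and 6.84 and 7.37 in Ramos. CASP4, which senses bacterial lipopolysaccharide in the cytosol, was below the level minimum in Namalwa at 3.97 and 3.80 and at 5.89 and 6.56 in Ramos, at least 3.50-fold higher there. CARD16, an inhibitor of CASP1 picked out after its values were seen, was at 4.51 and 4.31 against 5.90 and 6.17. The 3 genes follow each other on chromosome 11 in the order of tested genes. All were higher on both Ramos arrays, and the arrays of the lines did not overlap in 6470 of all 12012 genes tested. CARD16 is a close copy of part of CASP1, so probe sets may not keep the pair apart. Of 24 death receptors, caspases and inhibitors 2 were called lower, CASP1 and CASP4, and 2 higher, TNFRSF1A (0.84) and CFLAR (0.50, call not kept), together 16.7% and near the 14.7% of all genes tested. In the BCL2 family 4 of 18 were called higher and 3 lower, together 38.9%, beside 14.7% of all genes tested. BCL2L11, the pro-apoptotic BIM, was at 6.98 and 6.50 against 7.66 and 7.61, and BNIP3 was at 10.00 and 10.22 against 9.27 and 9.36, and near background in Raji at 2.85. BID (−0.49), BAX (−0.49), BCL2 (0.60) and BCL2L1 (0.47) did not keep their calls, both other probe sets of BCL2L1 differed the opposite way, and 3, 4, 3 and 4 family members were called without single arrays.

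The oncogenes TCL1A and TCL1B, co-activators of the kinase AKT, differed in opposite directions although they are next to each other on chromosome 14 among the genes tested. TCL1B was at 9.60 and 9.43 in Namalwa and 5.62 and 5.68 in Ramos, which is 14.6-fold higher (difference 3.87, SE 0.13, limma adjusted p = 3.84e-07), and its Raji mean was 5.27. TCL1A was at 11.04 and 11.20 against 12.07 and 12.09, a difference of −0.96 (SE 0.14, limma adjusted p = 0.00191), and its Raji mean was 7.88. High TCL1A was thus common to both lines, and TCL1B was high in Namalwa alone of the 3. Of the 24 tested genes of the TCL1 family and the AKT pathway, PIK3R1 was the other one called. Together the called genes are 12.5%, near the 14.7% of all genes tested.

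The promoters of this pair are shown because the genes are neighbours with opposite differences, and that of BCL2A1 because it is poor in CpG and the gene was below the level minimum in Ramos alone of the 3 lines. The sequences are RefSeq's on GRCh38.p14, from 250 bases before to 50 after the annotated start, on the gene's strand, with each CG in capitals. TCL1B lies at chr14:95686176-95686475 on the plus strand, TCL1A at chr14:95714076-95714375 on the minus strand, and BCL2A1 at chr15:79971147-79971446 on the minus strand.
TCL1B: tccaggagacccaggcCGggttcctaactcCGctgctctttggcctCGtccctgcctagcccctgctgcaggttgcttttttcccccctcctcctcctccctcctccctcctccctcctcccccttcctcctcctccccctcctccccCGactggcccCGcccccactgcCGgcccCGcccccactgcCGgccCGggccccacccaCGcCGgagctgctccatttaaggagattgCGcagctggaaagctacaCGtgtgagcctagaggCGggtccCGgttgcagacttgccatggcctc
TCL1A: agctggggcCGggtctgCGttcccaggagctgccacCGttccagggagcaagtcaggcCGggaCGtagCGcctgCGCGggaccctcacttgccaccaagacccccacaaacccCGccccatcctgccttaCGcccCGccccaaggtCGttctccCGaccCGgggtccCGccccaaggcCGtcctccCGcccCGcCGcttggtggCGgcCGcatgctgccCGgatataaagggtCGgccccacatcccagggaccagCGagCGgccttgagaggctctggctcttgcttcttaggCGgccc
BCL2A1: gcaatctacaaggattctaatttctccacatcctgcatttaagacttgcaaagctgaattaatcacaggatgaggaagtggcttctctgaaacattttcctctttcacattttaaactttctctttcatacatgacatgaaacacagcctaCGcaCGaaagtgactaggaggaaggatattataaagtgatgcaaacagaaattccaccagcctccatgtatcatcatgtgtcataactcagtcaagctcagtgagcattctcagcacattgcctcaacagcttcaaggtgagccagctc
TCL1B has 15 CG and TCL1A 26, against a median of 14 over all 27305 promoters in the table and 26 over the promoters of tested genes. BCL2A1 has 2, and 11.5% of all promoters have fewer. The letters TATAAA, searched on both strands, are found in TCL1A and BCL2A1 and not in TCL1B. They are in 11.95% of all promoters and in 5.81% of those of tested genes. Over the promoters matched to tested genes, the median count of CG was 25 for those at least 2-fold higher in Namalwa (173 promoters) and 22 for those at least 2-fold lower (104), against 26 for genes not called. The core of the interferon response element was searched on both strands as GAAA, any pair of bases and GAAA. It was in 16 of the 27 interferon list promoters (59.3%), in 3.65% of all and in 2.69% of those of tested genes. These matches describe the letters only.

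The list of amino acid transporters, synthesis enzymes and stress response genes around ATF4 had calls in 1 direction only, lower in Namalwa. Of 30 tested, 13 (43.3%) were called, all lower, beside 14.7% called and 6.57% called lower over all genes tested. All 30 differences were negative, with a median of −0.41 and a highest value of −0.04. Without the Namalwa empty, Namalwa miR26a, Ramos empty or Ramos miR26a array 7, 8, 8 and 6 members were called, each lower. The median was −0.40 in the empty pair and −0.41 in the miR26a pair. SLC7A11, the cystine transporter, was at 5.92 and 4.97 in Namalwa and 7.06 and 6.35 in Ramos. PSAT1, an enzyme of serine synthesis, was at 9.81 and 9.06 against 10.70 and 10.18. In both genes the empty array was higher than the miR26a array in each line, and Namalwa was lower in each pair. CTH, which makes cysteine (−0.91), STC2 (−0.97) and DDIT4 (−0.81) were lower with the call not kept. The ACTB 3′ signal of the Namalwa empty array stood 3.58 above its 5′ signal, as given above, and the part of RNA quality in these differences was not tested.

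Sterol and fatty acid synthesis went the other way in fewer genes, where 8.09% of all genes tested were called higher. Of 25 tested, 6 (24.0%) were called, each higher in Namalwa, with a median of 0.21, and 2, 2, 3 and 2 were called without single arrays. HMGCS1, an early enzyme of cholesterol synthesis, was at a mean of 7.83 against 6.91, and SCD, the stearoyl-CoA desaturase, at 10.17 and 10.08 against 9.34 and 9.35. STARD4 (0.66) and DHCR7 (0.48) did not keep the call. In the MYC network and its induced genes 5 of 34 (14.7%) were called, each lower in Namalwa. Over all genes tested, 14.7% were called in either direction and 6.57% were called lower. In the list 29 of 34 differences were negative. MYC itself was at 10.81 and 10.89 against 11.33 and 11.60 (−0.61), and FBL (−0.54), RCL1 (−0.50) and MXI1 (−0.47) were lower as well. None of these 4 kept its call. Without the Ramos empty array 2 members were called, and limma called none without each of the other 3, where 10 (Namalwa empty), 8 (Namalwa miR26a) and 5 (Ramos miR26a) members had an unadjusted p under 0.05.

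Lists of proliferation genes and of Polycomb genes gave single calls. In G1/S and DNA replication 4 of 43 were called (9.3%), in G2/M and mitosis 4 of 40 (10.0%), and among Polycomb genes 3 of 27 (11.1%), all beside the 14.7% of all genes tested. Without single arrays 2, 3, 2 and 3 genes of the first list and 3, 2, 2 and 3 of the second were called. POLE2, a subunit of DNA polymerase epsilon, was at 8.69 and 8.08 in Namalwa and 7.33 and 6.88 in Ramos. DLGAP5, a spindle protein, was at 8.71 and 8.19 against 7.35 and 6.86, and CDKN3, a phosphatase of cyclin-dependent kinases, at 9.08 and 8.56 against 7.75 and 7.45. These 3 genes lie in the same stretch of chromosome 14 described below. E2F3 was 1.08 higher and PTTG1, the securin, 0.75 higher, while MCM3 (−0.64) and KIF11 (−0.75) were lower, call not kept. Of the Polycomb genes JARID2 (0.61), CBX7 (0.63) and PHC1 (0.49) were higher, call not kept. For these Polycomb genes 2 were called without the Namalwa miR26a array and 1 without the Ramos miR26a array. Limma called none of them without the Namalwa empty or the Ramos empty array, where 3 had an unadjusted p under 0.05 in each fit.

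The remaining groups held single genes of size. Beside them, 8.09% of all genes tested were called higher and 6.57% lower in Namalwa. Of 24 p53 genes 4 were called lower and 2 higher, among them TIGAR, a brake on glycolysis, at 7.82 and 8.03 against 8.74 and 8.82, and SESN1, 0.86 higher, and 4, 3, 2 and 5 were called without single arrays. Of 31 genes of hypoxia and glycolysis 6 were called lower and 3 higher, P4HA2 being the widest, and 3, 6, 3 and 4 were called without single arrays. In the WNT pathway 5 of 29 were called higher and 3 lower. WNT5A, a ligand of the noncanonical branch, was at 7.38 and 6.89 against 5.33 and 5.27. ZNRF3, a ligase that removes WNT receptors, was 0.70 lower, and ROR1, a receptor for WNT5A, was 1.01 lower with the call not kept. Both were near background in Raji, at means of 3.32 and 3.18. In the TGF-beta pathway, with 4 of 23 called in each direction, the activin receptors parted. ACVR2A was at 4.70 and 4.94 against 5.98 and 5.86, and ACVR2B at 5.23 and 5.49 against 4.32 and 4.44. Without single arrays 4, 6, 5 and 5 WNT genes and 3, 7, 4 and 5 TGF-beta genes were called.

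Of 52 clustered protocadherin genes listed, 12 were tested and 2 called lower, which is 16.7% and near the 14.7% of all genes tested. PCDHGA4 was at 5.40 and 5.28 in Namalwa against 7.83 and 8.08 in Ramos, and PCDHGA10 was 0.62 lower, call not kept. Genes of this cluster share exons and near-identical copies, so the assignment to 1 member is uncertain. Of 45 cancer-testis genes listed, 4 were tested and 2 called lower, beside 6.57% called lower over all genes tested. With 4 genes tested, the share says little about the list. The 2 were TEX30, which lies in the stretch of chromosome 13 described below, and ACTL8, at 6.03 and 5.88 against 7.58 and 7.81. The list of cystatins and cathepsins, which also holds lysosomal membrane genes, had 17 tested members, of which 5 were called lower and 2 higher. Together these are 41.2%, beside 14.7% of all genes tested. The lower ones were CSTA, LAMP5, LAMP1 and the cathepsins CTSD (call not kept) and CTSC, the last outside the naming rule. The higher ones were CTSH, a lysosomal aminopeptidase, at 7.17 and 7.42 against 4.47 and 5.25, and CSTB (0.61, call not kept). LAMP1, a main protein of the lysosomal membrane, was at 8.65 and 8.41 against 10.09 and 10.00. Of 32 ribosomal protein genes, RPS15 was called (0.48, call not kept).

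**Figure D3:**
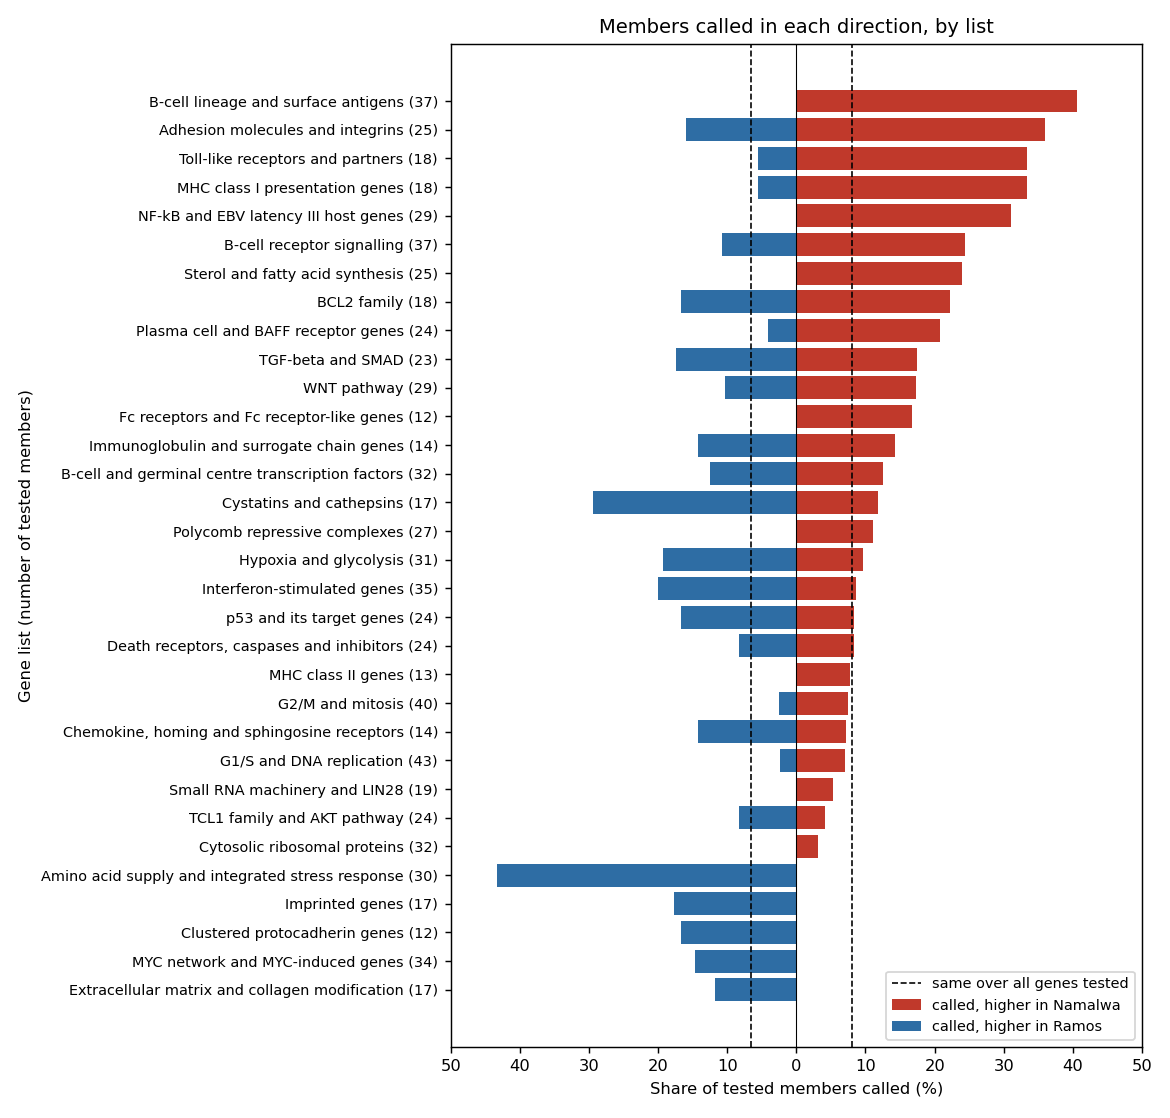
Share of the tested members of each gene list (number in brackets) that were called higher in Namalwa (red, to the right) or higher in Ramos (blue, to the left), in percent, for lists with at least 10 tested members. The dashed lines mark the shares over all 12012 genes, 8.09% and 6.57%. The B-cell antigens reach 40.5% on the right, and the amino acid supply genes 43.3% on the left.

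Called genes were unevenly spread over the chromosomes, a grouping added after values had been seen. On chromosome 14, 153 of 391 tested genes (39.1%) were called higher in Namalwa, against 8.09% of all genes, and 5 were called lower. Of its 391 differences 299 were positive. On chromosome 13, 44 of 201 (21.9%) were called lower in Namalwa, against 6.57% of all. Chromosome 6 had 96 of 601 (16.0%) and chromosome 15 had 47 of 396 (11.9%) called higher, while the other chromosomes ranged from 3.92% to 8.99% higher and from 1.28% to 10.6% lower, chromosome 14 included in the second range. The median difference of chromosome 14 was 0.28, and it stayed positive, from 0.15 without a level minimum to 0.50 at the stricter minimum, in all alternatives.

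**Figure D4:**
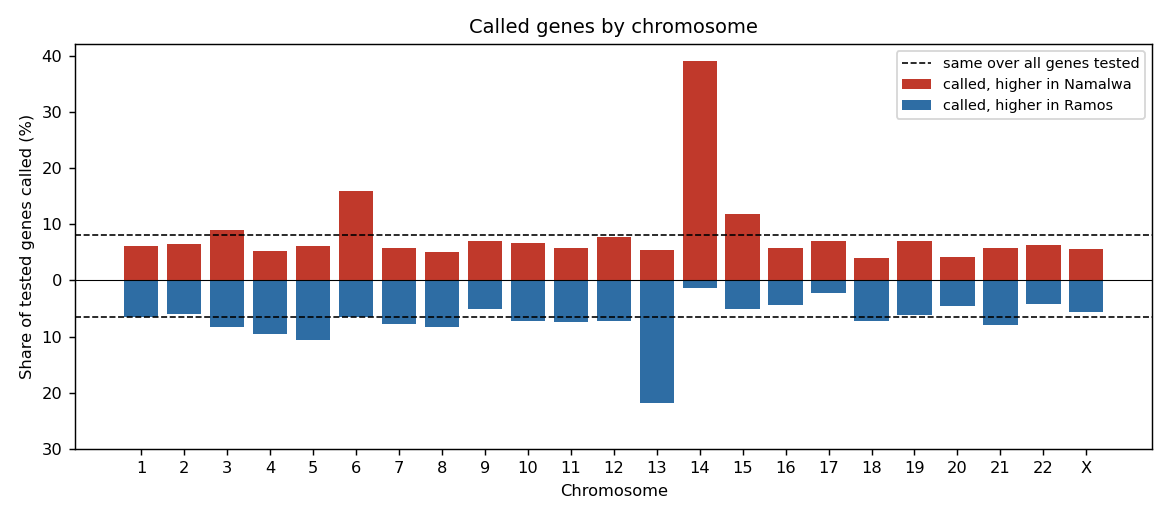
Share of tested genes on each chromosome (x axis) that were called higher in Namalwa (red, upward) or higher in Ramos (blue, downward), in percent (y axis). The dashed lines mark 8.09% and 6.57%, the shares over all genes tested. Chromosome 14 reaches 39.1% upward and chromosome 13 reaches 21.9% downward.

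The calls were clustered within these chromosomes. When tested genes were put in their order along each chromosome and the median difference was taken over windows of 31 neighbours, 6 runs of at least 20 genes had a running median beyond 0.25 on either side. The runs were chosen on this same difference, so their counts are a description and have no test, and the genes of the runs given below were picked after their values were seen. They held 420 of the 12012 genes (3.50%) and 247 of the 1761 called (14.03%). Outside the runs 749 genes were called higher in Namalwa and 765 lower, together 13.06% of the 11592 tested genes there.

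The longest run lay on chromosome 14, from CBLN3 to LRRC74A. Of its 186 genes 119 (64.0%) were called higher in Namalwa and 1 lower, beside 8.09% and 6.57% of all genes tested. The median was 0.66 (0.63 in the empty pair and 0.68 in the miR26a pair). A median of 0.66 is 1.58-fold. The genes have no common function that their names show. They include FUT8, a fucosyltransferase (1.93), SGPP1, which degrades sphingosine 1-phosphate (1.84), MAP4K5 (1.69), the mitotic genes DLGAP5 and CDKN3, and POLE2. The 1 opposite member was ARHGAP5, at 3.98 and 3.61 in Namalwa against 6.88 and 7.26 in Ramos. A second run further along the chromosome, from SNW1 to DICER1, held 48 genes with a median of 0.31 and 17 called higher and 1 lower. It was less firm, with 9, 7, 2 and 8 members called without the Namalwa empty, Namalwa miR26a, Ramos empty or Ramos miR26a array, against 92, 92, 93 and 84 called higher in the first run.

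On chromosome 6 the run from FAM50B to CMAHP was near the start of the gene order. Its median of 0.81 was the widest of the Namalwa-high runs. Of its 58 genes 44 (75.9%) were called, each higher in Namalwa, beside 8.09% called higher over all genes tested. It held several genes named above, CMAHP, PHACTR1, RNF144B, E2F3, CD83 and JARID2, and also SOX4, a transcription factor of early B cells (1.16), SIRT5 (1.63) and KDM1B, a histone demethylase (1.41). The median difference of this run was 0.83 in the empty pair and 0.80 in the miR26a pair. On chromosome 3, 16 of 27 genes from TWF2-DT to CCDC66 were called higher, with a median of 0.68, WNT5A (1.83) and NEK4 (1.37) being the widest. On chromosome 15, 26 of 69 genes from CYP1A2 to SCAND2P were called higher, with a median of 0.38. BCL2A1, CTSH and CSK lie in it, and 10, 14, 10 and 10 of its genes were called without single arrays in the order above.

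The run on chromosome 13 was the single one higher in Ramos. Over all genes tested, 6.57% were called lower in Namalwa. From DNAJC3 to MCF2L, 22 of 32 genes were called lower in Namalwa, with a median of −0.79, and 19, 16, 20 and 18 without single arrays. TEX30 and NAXD, near background in Namalwa, were its widest members, followed by GPR18, a lipid receptor of lymphocytes, at 7.52 on both Namalwa arrays and at 9.13 and 8.98 in Ramos. GPR183, which positions B cells in follicles, was 0.74 lower, call not kept. The first gene of the run, DNAJC3, an inhibitor of eIF2 alpha kinases, was the exception at 9.26 and 9.17 in Namalwa against 7.82 and 7.79 in Ramos. The run ended at the last full window of the chromosome, and LAMP1, beyond it, was also lower in Namalwa.

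Raji did not enter the difference on which the runs were chosen, though its arrays helped set the level minimum and the probe set of each gene. Both differences that follow share the Raji arrays. Gene by gene they part by the Namalwa minus Ramos difference itself, so at least 1 line had to lie away from Raji. No test was made. In the long run of chromosome 14 the median was 0.03 for Namalwa minus Raji and −0.50 for Ramos minus Raji, in that of chromosome 6 it was 0.01 and −0.72, and in that of chromosome 3 it was −0.12 and −0.51. In these 3 runs the median for Ramos lay further from Raji than that for Namalwa. The chromosome 13 run gave −0.50 and 0.33, with Raji between the lines, and the chromosome 15 run 0.11 and −0.14. The second run of chromosome 14 gave 0.66 and 0.31, both above Raji.

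**Figure D5:**
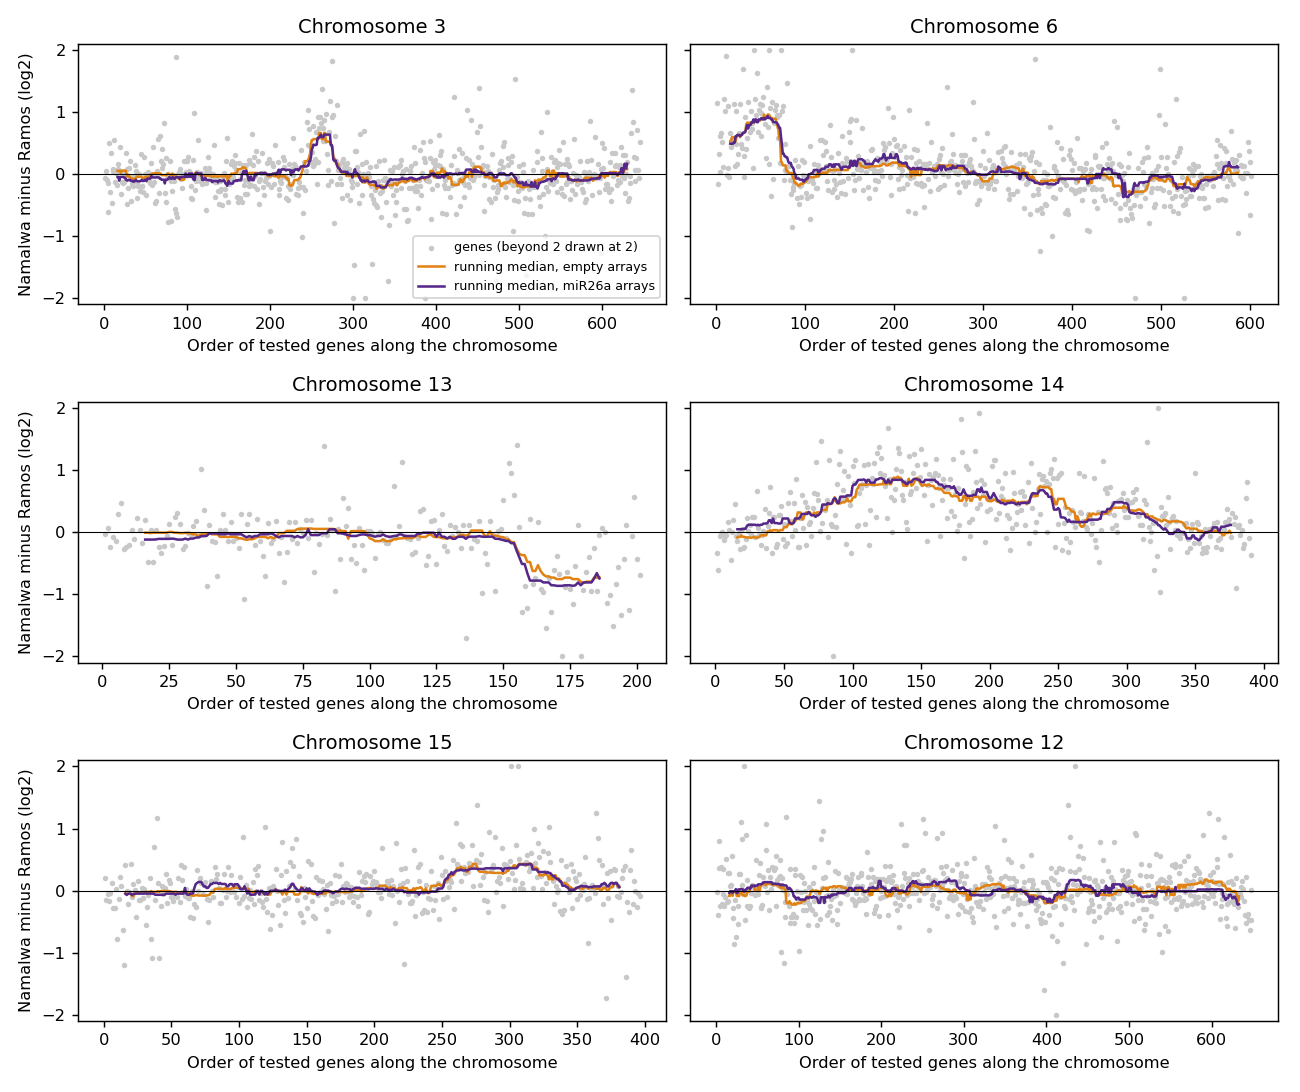
Namalwa minus Ramos (y axis, log2) for tested genes in their order along 6 chromosomes (x axis), 1 grey point per gene, with the median over 31 neighbours in the empty arrays (orange) and in the miR26a arrays (purple). Both lines rise on chromosomes 3, 6, 14 and 15 and fall at the end of chromosome 13 in the same places, and stay near 0 on chromosome 12, which holds no run.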

How the data were processed

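Total RNA of 6 samples was measured on Affymetrix U133 Plus 2.0 arrays. Log2 intensities were deposited, which the authors had normalised with RMA in BRB Array Tools, per the labels of the series, and GCOS is named in the submitters' processing notes. RMA quantile normalisation gives all arrays like distributions, so an overall shift of RNA between lines cannot be seen. Of 54675 probe sets, 41091 had 1 gene symbol, 1801 several and 11721 none, and 41037 symbols were updated through the Entrez ID. The brightest probe set on average stood for each gene, and 12012 of 19775 genes whose mean reached 4.42, the median over non-control probe sets, entered the test. Probe sets with several gene symbols were not named.

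The fit used limma 3.58.1 in R 4.3.3 (lmFit and eBayes) on all 6 arrays, which share 1 estimate of the spread, with line and construct as terms. No Raji array entered the difference. The construct was a block by design: the change from empty to miR26a in Namalwa and in Ramos correlated with r = 0.347 across genes. On simulated data with 200 changed genes, the procedure recovered 51.4% of changes of 0.5, 99.7% of changes of 1 and 100% of changes of 2 (log2), and 7.51% of its calls were false. Genes were named by a rule on size and list membership: EZH2, the 15 widest differences each way, the 12 widest each way with both lines above the minimum, and up to 4 called members of each list in each direction. The comparison, the lists and their members were chosen with earlier results of these data known. Alternatives covered the block, normalisation, level minimum, choice of probe sets and each array left out. The number of arrays limits the precision.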

Additional observations from a re-analysis of the deposited data

How the results depend on the processing

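The count of 1761 called genes was 2781 when each probe set was tested by itself and 783 at an adjusted p under 0.01, and between 870 and 2430 when 1 array was left out, the highest without a Raji array, where the fit reduces to the 4 arrays. The count of 340 genes with at least 2-fold was 164 at a level minimum at the 75th percentile, 210 with the mean of all probe sets, 581 for each probe set by itself and 55 at 4-fold, and 340 to 383 without 1 array. The count of 184 called list members and named genes was 90 at an adjusted p under 0.01 and 108 to 239 without 1 array. Without the construct as a replicate block 1199 genes were called, 334 with at least 2-fold, and 35 of the 174 named calls were lost. Of the named genes, ERAP1 changed sign, to 0.0227 with the mean of all probe sets (adjusted p = 0.897). The share of calls higher in Namalwa was 55.2%, 50.7% with arrays centred on their medians and 61.5% after another quantile normalisation. Another probe set above the level minimum differed the opposite way for 9 of the 95 named genes that have one. Leaving out each array, with 1 array then left in that line, assumes that this array varies like those of the other lines. A level near background limits a fold to a lower bound, which holds for the probe set that stood for the gene.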
